A study of Mus musculus with 6 samples.

Results

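The Sprouty, Spred and dual specificity phosphatase genes described here are feedback brakes of the RAS to ERK kinase pathway, and they are described with 2 transcription factor genes that ERK activity induces. The 10 genes are Spry1, Spry2, Spry4, Spred1, Spred2, Dusp4, Dusp5, Dusp6, Etv5 and Fosl1. They were chosen by symbol from the 22098 genes of the table, and each had 1 RefSeq transcript row, with transcripts of 1159 to 4592 bases.

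Growth factor receptors and oncogenic kinases load RAS with GTP, which starts the RAF, MEK and ERK kinase cascade. ERK in turn induces its own inhibitors. Sprouty proteins act at the membrane upstream of RAF, Spred proteins bring the RAS brake neurofibromin to the membrane, and dual specificity phosphatases remove the activating phosphates from ERK. BCR-ABL activates RAS through adaptors such as GRB2 and GAB2, and feedback genes of this kind have been described as tolerance factors for that signal in transformed pre-B cells.

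The cells came from C57BL/6 mice whose whole marrow received a retrovirus encoding BCR-ABL p185, an oncogenic fusion kinase, together with yellow fluorescent protein, and were cultured for 14 days. All 3 groups carry this oncogene. The cells were homozygous for loss of zinc finger 4 (ZnF4 mutants) or of zinc finger 1 (ZnF1 mutants) of Ikaros, a lymphoid transcription factor that is a tumour suppressor in this leukaemia, or were wild type (wt), with 2 biological replicates each. The labels call the cells transformed proB-ALL and mention no sorting, so other marrow cells may be present. Expression is given as RPKM (reads corrected for the length of the transcript and the size of the library), rounded to 1 decimal, so the depth of the libraries is unknown.

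The 10 B lineage markers summed to 2356.3 to 3501.3 RPKM per library, and none was at 0. Of 8 T and NK cell markers, 5 (Cd3d, Cd3e, Cd3g, Cd8a and Ncr1) were at or below 0.1 RPKM in all libraries, while Lck, a kinase gene of the same list, was at 15 to 53.4. Markers of several other cell types varied. The 10 monocyte and macrophage markers in the table summed to 316.7 and 367.5 RPKM in ZnF4 mutants, 871.1 and 989.9 in ZnF1-mutant cultures, and 301.4 and 359.6 in wt. The 14 stromal and endothelial markers summed to 76.4 and 79.6 RPKM in ZnF4 mutants, 268.6 and 154.1 in ZnF1-mutant cultures, and 72.1 and 80.9 in wt, with Tek at 0 throughout and Lepr at 0.1 or less. Both sums were higher in each ZnF1 mutant library than in any library of the other groups. Granulocyte markers summed to 1638.2 RPKM in ZnF1 mutant replicate 2 and 533.5 in wt replicate 1, against 1.2 to 54 in the other 4 libraries.

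The 10 genes ranged from 0.7 RPKM (Spry4 in wt) to 137.7 RPKM (Dusp5 in ZnF1 mutants). The ERK phosphatase genes Dusp5 and Dusp6 were the most abundant in each group, and Spred1 came next. In wt the means then ran from Spred2 at 11.3 RPKM through Spry2 at 9.1, Spry1 at 6.45 and Etv5 at 6.4 to Fosl1 at 1.5, Dusp4 at 1.25 and Spry4 at 0.75. Neighbours in this order whose wt libraries overlapped were Dusp5 and Dusp6, Spred1 and Spred2, Spry1 and Etv5, and Fosl1 and Dusp4. The lower ranks were ordered differently in the mutants. Spry4 was last in ZnF1 mutants as well as in wt, while Fosl1 was last in ZnF4 mutants. Dusp4 stood seventh in ZnF4 mutants, and its libraries there overlapped those of Spry2 and Spry1.

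**Figure D1:**
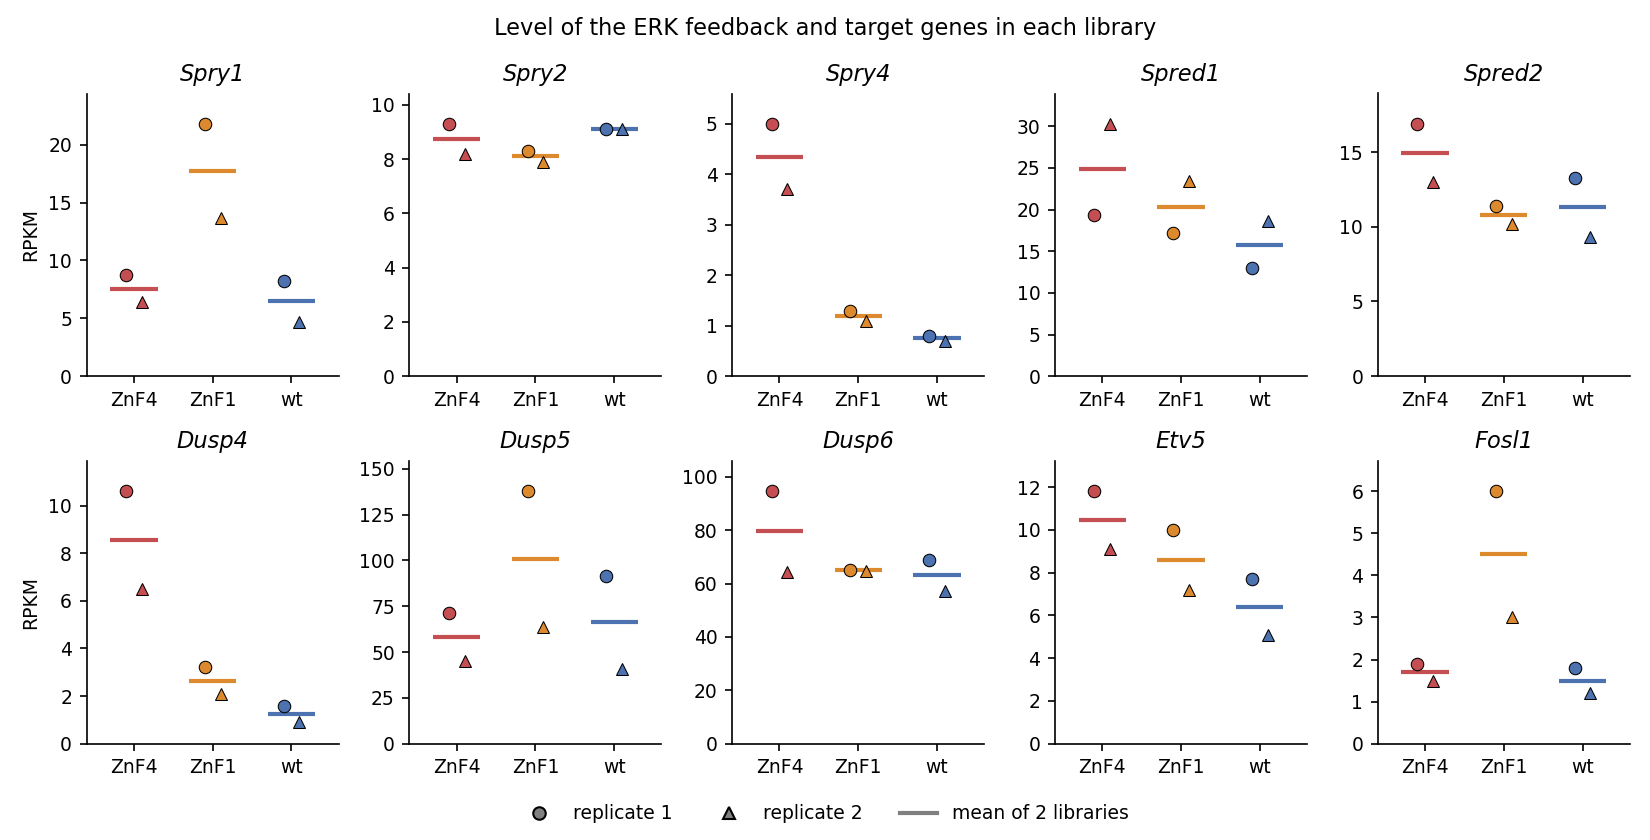
RPKM of each of the 10 genes in the 6 libraries, with a panel per gene, each vertical axis starting at 0. Points are libraries (circle for replicate 1, triangle for replicate 2) and lines are the means of 2 libraries. Spry4 and Dusp4 stand highest in both ZnF4 mutant libraries, Spry1 and Fosl1 in both ZnF1 mutant libraries, and replicate 2 lies below replicate 1 for most genes and above it for Spred1.

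Promoter sequences from RefSeq (GRCm38.p6, from 250 bases before to 50 after each start) were found for 7 of the 10 genes, and Dusp4, Fosl1 and Spry4 had none in that table. Etv5 has 2 annotated starts. The sequences below belong to Spry1, which had the largest difference from wt among these 7 genes, and to Etv5 and Spred2, whose windows held a match. They are shown to give the reader the letters that were searched. Capitals mark matches, on either strand, to the ETS motif CCGGAA, the AP-1 motif TGANTCA, the cyclic AMP response element TGACGTC or the Ikaros core TGGGAA.
Spry1 (chr3:37639697-37639996, + strand): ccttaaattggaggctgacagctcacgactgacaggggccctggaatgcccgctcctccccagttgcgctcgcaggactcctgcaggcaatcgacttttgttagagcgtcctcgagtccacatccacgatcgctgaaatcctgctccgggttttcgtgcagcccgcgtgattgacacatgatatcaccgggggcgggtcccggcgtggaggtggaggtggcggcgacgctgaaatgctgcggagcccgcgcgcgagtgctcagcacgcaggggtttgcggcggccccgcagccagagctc
Etv5, downstream start (chr16:22438319-22438618, − strand): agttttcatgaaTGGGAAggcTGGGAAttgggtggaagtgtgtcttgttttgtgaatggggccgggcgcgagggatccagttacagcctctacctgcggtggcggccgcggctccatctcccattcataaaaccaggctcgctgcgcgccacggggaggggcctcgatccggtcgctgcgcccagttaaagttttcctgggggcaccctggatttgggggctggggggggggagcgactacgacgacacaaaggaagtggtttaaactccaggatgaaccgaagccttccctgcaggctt
Spred2 (chr11:19924192-19924491, + strand): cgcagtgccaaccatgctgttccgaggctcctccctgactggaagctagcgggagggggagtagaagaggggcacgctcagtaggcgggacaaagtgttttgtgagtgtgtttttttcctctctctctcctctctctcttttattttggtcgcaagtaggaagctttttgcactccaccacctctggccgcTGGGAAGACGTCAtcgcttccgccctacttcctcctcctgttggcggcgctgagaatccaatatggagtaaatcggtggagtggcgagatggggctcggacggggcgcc
The Spry1 window held no match to these letters. The downstream Etv5 start held 2 Ikaros cores, with first bases at −238 and −229 relative to the start, and the upstream Etv5 start held none. Spred2 held an Ikaros core at −59, directly followed by the response element on the opposite strand, without overlap. Spry2 held an ETS match, and the windows of Spred1, Dusp5 and Dusp6 held no match. Of 32851 promoters of this length, 25.6% held the Ikaros core, 14.9% the ETS motif, 7.81% the AP-1 motif and 3.21% the response element.

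A test across all genes was run as limma on log2(RPKM + 1), with 11344 genes of at least 1 RPKM in at least 2 libraries. P-values were adjusted by the Benjamini-Hochberg method over these genes, with a threshold of 0.05. All 10 genes entered it, but Spry4 did so through the mutant libraries, since both wt libraries were under 1 RPKM. Because same-numbered replicates deviated together, a second fit with the replicate number as an added term (the replicate block) is given wherever it changes a call. In ZnF4 mutants against wt, 2 of the 10 genes passed, both higher, where 1.43% of all genes tested passed as higher (2.72% in both directions). With the replicate block 4 were higher and 0 lower, against 8% of all genes higher and 7.92% lower. In ZnF1 mutants against wt, 0 of 10 passed by limma without the block, against 0% of all genes, while 2 of the 10 and 1281 of all genes had an unadjusted p under 0.05. With the block 4 were higher and 0 lower, against 10.4% higher and 2.88% lower overall. In ZnF4 mutants against ZnF1 mutants, 1 passed as higher, against 1.61%, and 0 passed as lower, against 3.76% (5.37% of all genes passed in both directions). With the block 3 were higher and 3 lower, against 15.9% and 19.2% (35.1% in both directions). The median log2 difference of the 10 genes was 0.35 in ZnF4 mutants against wt and 0.36 in ZnF1 mutants against wt, beside medians over all genes tested of 0.04 and −0.01. Both comparisons share the wt libraries.

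**Figure D2:**
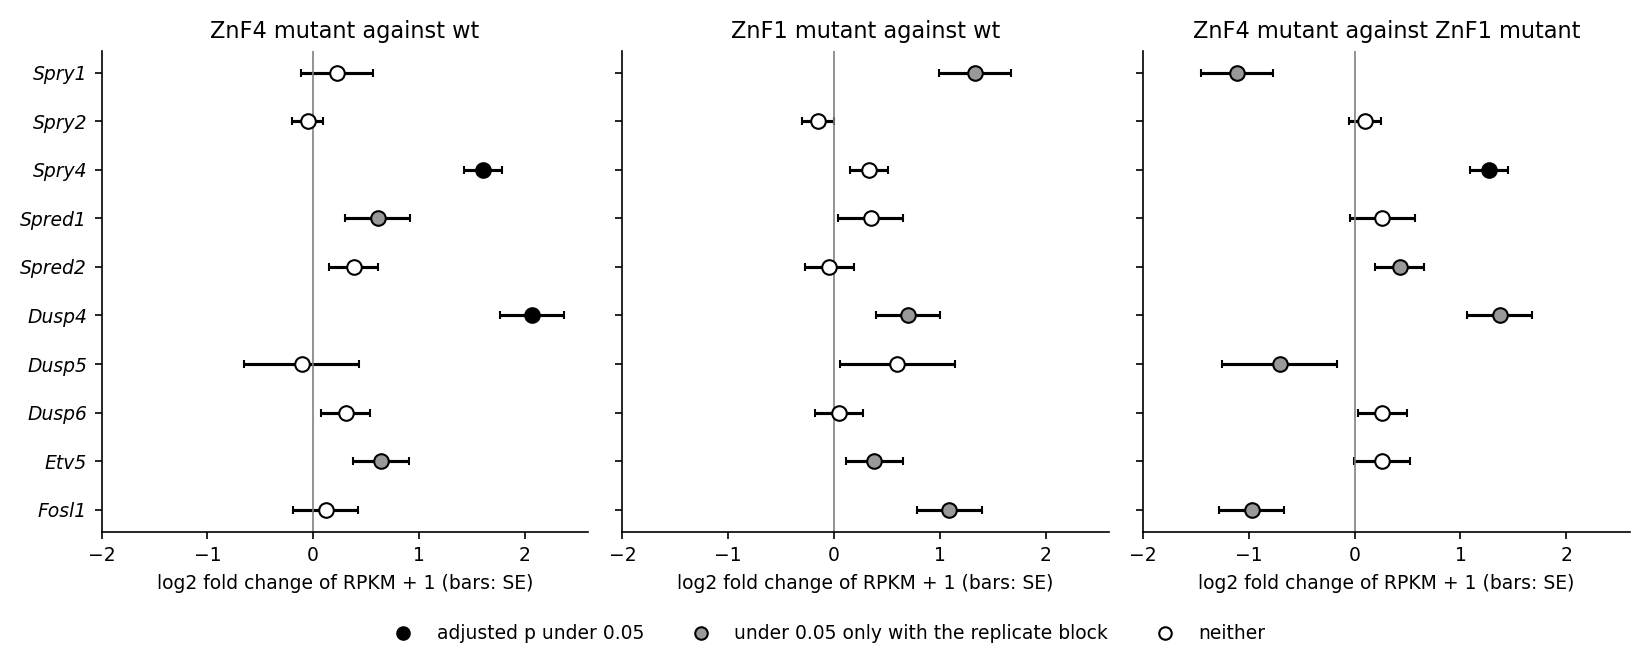
Log2 fold change of RPKM + 1 (horizontal axis, bars show the SE of the limma fit without the replicate block) of the 10 genes in 3 comparisons. Filled points had an adjusted p under 0.05, grey points had one with the replicate block alone, and open points had neither. Dusp4 at 2.07 and Spry4 at 1.60 are furthest to the right in ZnF4 mutants against wt, and Spry1 at 1.34 and Fosl1 at 1.09 in ZnF1 mutants against wt.

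The Sprouty genes differed from one another in their pattern over the groups. Spry4, a Sprouty family inhibitor of receptor signalling to RAS, was at 5 and 3.7 RPKM in ZnF4 mutants, 1.3 and 1.1 in ZnF1-mutant cultures, and 0.8 and 0.7 in wt. The groups did not overlap, with ZnF4 mutants highest and wt lowest. It rose in ZnF4 mutants against wt by 1.60 (log2, SE 0.18, limma adjusted p = 0.0215) and against ZnF1 mutants by 1.27 (SE 0.18, adjusted p = 0.0269). The ratio of mean RPKM to wt was 5.8, more than the log2 value implies, because 1 is added to low levels. In ZnF1 mutants against wt its value was 0.33 (adjusted p = 0.71, or 0.14 with the replicate block).

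Spry1, another Sprouty inhibitor of receptor tyrosine kinase signalling, was at 8.7 and 6.4 RPKM in ZnF4 mutants, 21.8 and 13.7 in ZnF1-mutant cultures, and 8.2 and 4.7 in wt. Both ZnF1 mutant libraries were above all others, while ZnF4 mutants overlapped wt. The difference of ZnF1 mutants from wt was 1.34 (log2, SE 0.34, 95% interval 0.48 to 2.20), with a limma adjusted p of 0.18, or 0.0054 with the replicate block. Within replicate numbers it was 1.31 and 1.37. ZnF4 mutants differed from ZnF1 mutants by −1.11 (adjusted p = 0.15, or 0.0025 with the block) and from wt by 0.23 (adjusted p = 0.21 with the block).

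Spry2, a Sprouty protein whose own transcription follows ERK activity, was at 9.3 and 8.2 RPKM in ZnF4 mutants, 8.3 and 7.9 in ZnF1-mutant cultures, and 9.1 in each wt library. The ZnF1 mutant libraries were below both wt libraries, and all 6 lay between 7.9 and 9.3. No comparison passed with or without the block, and the 95% intervals of the log2 difference were −0.43 to 0.32 in ZnF4 mutants against wt and −0.52 to 0.22 in ZnF1 mutants against wt.

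Neither Spred gene passed by limma without the block. Spred1, which anchors neurofibromin at the membrane, was at 19.4 and 30.3 RPKM in ZnF4 mutants, 17.2 and 23.4 in ZnF1-mutant cultures, and 13 and 18.6 in wt. The ZnF4 mutant libraries were above both wt libraries, and replicate 2 was above replicate 1 in each group. With the replicate block Spred1 rose in ZnF4 mutants against wt by 0.61 (log2, adjusted p = 0.0096, but 0.60 by limma without the block). Without the block, leaving out ZnF4 mutant replicate 2 or wt replicate 1 gave 0.30 and 0.37, and leaving out ZnF4 mutant replicate 1 gave 0.92. Its value of ZnF1 mutants over wt was 0.35 (adjusted p = 0.053 with the block).

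Spred2, its close relative, was at 16.9 and 13 RPKM in ZnF4 mutants, 11.4 and 10.2 in ZnF1-mutant cultures, and 13.3 and 9.3 in wt. ZnF4 mutants were above ZnF1 mutants without overlap, and wt overlapped both. ZnF4 mutants differed from ZnF1 mutants by 0.43 (log2, limma adjusted p = 0.42, or 0.030 with the block; 0.25 without ZnF4 mutant replicate 1 and no block), and from wt by 0.38 (adjusted p = 0.066 with the block). The neurofibromin gene Nf1 itself was at 3.4 and 4.5 RPKM in ZnF4 mutants, 2.1 and 3.8 in ZnF1-mutant cultures, and 2.7 and 4 in wt, which overlap.

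Among the phosphatases, Dusp4, a nuclear enzyme that acts on ERK and on stress kinases, was at 10.6 and 6.5 RPKM in ZnF4 mutants, 3.2 and 2.1 in ZnF1-mutant cultures, and 1.6 and 0.9 in wt. The 3 groups did not overlap. Dusp4 rose in ZnF4 mutants against wt by 2.07 (log2, SE 0.31, limma adjusted p = 0.0374), and the ratio of mean RPKM was 6.84. It differed from ZnF1 mutants by 1.37 (adjusted p = 0.072, or 0.0015 with the replicate block). Against wt, ZnF1 mutants differed by 0.70 (adjusted p = 0.52, or 0.017 with the block), a value of 0.47 to 0.93 when single libraries were left out without the block. Beside the rises of Dusp4 and Spry4 in ZnF4 mutants, macrophage marker sums were 316.7 and 367.5 RPKM in ZnF4 mutants and 301.4 and 359.6 in wt. Stromal and endothelial sums were 76.4 and 79.6 RPKM in ZnF4 mutants and 72.1 and 80.9 in wt, but their genes went both ways. Fn1 was at 35.3 and 48.2 RPKM in ZnF4 mutants and 16.2 and 30.4 in wt (limma adjusted p with the block 0.071). Col1a1, Col1a2 and Pecam1 were below wt without overlap in ZnF4 mutants. By limma 0 of 10 macrophage markers passed there, beside 2.72% of all genes tested, and 0 with the block, beside 15.9%. Of 11 tested stromal and endothelial markers 1 passed as higher, beside 1.43% of all genes tested. It was the endothelial cadherin gene Cdh5, at 2.1 and 1.3 RPKM in ZnF4 mutants and 0 in both wt libraries (adjusted p = 0.027). Cdh5 entered the test through ZnF4 mutant libraries alone. With the block Kdr was also higher and Pecam1 lower (adjusted p = 0.021 and 0.0036). That made 2 of 11 higher and 1 lower, beside 8% and 7.92% of all genes tested. Kdr was at 0.7 and 0.9 RPKM in ZnF4 mutants and 0.1 in both wt libraries, and it entered the test through ZnF1 mutant libraries. Among the B lineage markers, Cd72 fell in ZnF4 mutants, at 21.6 and 18.8 RPKM against 40.1 and 43 in wt (log2 −1.01, adjusted p = 0.045). With the block Ptprc was lower too (−0.41, adjusted p = 0.017), so 2 of 10 B lineage markers were lower, beside 7.92% of all genes tested. Lck, of the T and NK cell list, was also lower with the block (−1.07, adjusted p = 0.019). The part of these markers in the values of Dusp4 and Spry4 was not tested. In bulk RNA, fewer cells that express a gene and less RNA of it per cell cannot be told apart.

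The calls of Dusp4 and Spry4 needed all 6 libraries. Leaving out any 1 library gave an adjusted p of 0.058 to 0.19 for Spry4 and 0.076 to 0.24 for Dusp4 in ZnF4 mutants against wt, with log2 values of 1.43 to 1.78 and 1.75 to 2.38. For Spry4 between the mutants it gave 1.10 to 1.45 and an adjusted p of 0.055 to 0.19. A fit of only the 4 libraries of ZnF4 mutants and wt gave an adjusted p of 0.058 for Spry4 and 0.077 for Dusp4, and without the filter on low values Dusp4 had 0.073.

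Dusp5, a nuclear phosphatase that acts on ERK, was at 71.5 and 45 RPKM in ZnF4 mutants, 137.7 and 63.4 in ZnF1-mutant cultures, and 91.7 and 40.9 in wt. All 3 groups overlapped, and replicate 1 was above replicate 2 in each. ZnF4 mutants differed from ZnF1 mutants by −0.71 (log2, SE 0.55, limma adjusted p = 0.60), a difference that passed with the replicate block (adjusted p = 0.018). Against wt, ZnF1 mutants differed by 0.60 (adjusted p = 0.052 with the block). Within replicate numbers, the mutants differed by −0.936 and −0.485, and ZnF1 mutants differed from wt by 0.581 and 0.62. In the fit without the block, leaving out a single library left the replicate numbers unbalanced, and both values moved. Between the mutants the difference was −0.16 without ZnF1 mutant replicate 1, −0.38 without ZnF4 mutant replicate 2 and −1.26 without ZnF1 mutant replicate 2. For ZnF1 mutants over wt it was 0.05 and 0.03 without ZnF1 mutant replicate 1 and wt replicate 2, and 1.15 and 1.17 without ZnF1 mutant replicate 2 and wt replicate 1.

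Dusp6, the cytoplasmic ERK phosphatase, was at 94.6 and 64.5 RPKM in ZnF4 mutants, 65.1 and 64.9 in ZnF1-mutant cultures, and 69 and 57.3 in wt. ZnF4 mutant replicate 1 stood above the other 5 libraries, and the groups overlapped. No comparison of Dusp6 passed with or without the block. The 95% intervals of the log2 difference from wt were −0.27 to 0.89 in ZnF4 mutants and −0.53 to 0.63 in ZnF1 mutants.

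The 2 transcription factor genes had their highest levels in different groups. Etv5, an ETS family factor whose transcription follows ERK activity, was at 11.8 and 9.1 RPKM in ZnF4 mutants, 10 and 7.2 in ZnF1-mutant cultures, and 7.7 and 5.1 in wt. ZnF4 mutants were above wt without overlap, and ZnF1 mutants overlapped both. With the replicate block Etv5 rose in ZnF4 mutants against wt by 0.64 (log2, adjusted p = 0.0088) and in ZnF1 mutants against wt by 0.38 (adjusted p = 0.043), while limma without the block gave adjusted p of 0.46 and 0.91. Without the block, leaving out wt replicate 2 gave 0.39 in ZnF4 mutants and 0.13 in ZnF1 mutants, and leaving out ZnF1 mutant replicate 1 gave 0.17 in ZnF1 mutants.

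Fosl1 encodes FRA1, a subunit of the AP-1 transcription factor. It was at 1.9 and 1.5 RPKM in ZnF4 mutants, 6 and 3 in ZnF1-mutant cultures, and 1.8 and 1.2 in wt. Both ZnF1 mutant libraries were above all others. ZnF1 mutants differed from wt by 1.09 (log2, SE 0.31, limma adjusted p = 0.23, or 0.020 with the block), and the ratio of mean RPKM was 3. ZnF4 mutants differed from ZnF1 mutants by −0.97 (adjusted p = 0.16, or 0.013 with the block). Without ZnF1 mutant replicate 1 and no block, these values were 0.69 and −0.57. Fosl1 and Spry1 were thus both highest in ZnF1 mutants, where macrophage and stromal marker sums were also highest. There 8 of 10 macrophage markers and 9 of 11 tested stromal and endothelial markers were higher than wt with the block, where 10.4% of all genes were. Of these 9, Col3a1, Pdgfrb, Kdr and Vcam1 reached 1 RPKM in ZnF1 mutant libraries alone and so entered the test through the group where they were high. The part of these markers in the values of Spry1 and Fosl1 was not tested.

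By overlap alone, Spry4, Spred1, Dusp4 and Etv5 were above wt in ZnF4 mutants, 4 of 10 genes, where 17.8% of all genes tested were. In ZnF1 mutants 4 of 10 genes, Spry1, Spry4, Dusp4 and Fosl1, were above wt, against 18.3% of all genes, and 1, Spry2, was below, against 12.7%. Between the mutants 3 of 10 genes were higher in ZnF4 mutants, against 21.7%, and 2 were lower, against 21.8%. The genes without overlap between the mutants, Spry4, Dusp4 and Spred2 on the higher side and Spry1 and Fosl1 on the lower side, also passed with the block.

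Most of the 10 genes differed by replicate number. In the fit with the block, Dusp5 differed by −0.97 (log2, replicate 2 minus replicate 1, limma adjusted p = 0.0032), larger in size than each of its differences between genotypes. Spry1 differed by −0.57, Dusp4 by −0.51, Fosl1 by −0.46, Etv5 by −0.43 and Spred2 by −0.32, with adjusted p of 0.0048 to 0.040. Spred1 went the other way, at 0.51 (adjusted p = 0.0038), with replicate 2 higher in each of the 3 groups. In all, 6 of 10 genes passed as lower in replicate 2, beside 34.2% of all genes tested, and 1 of 10 as higher, beside 18.3% (52.5% in both directions). Replicate 2 was the lower library in all 3 groups for 8 of 10 genes, where 44.3% of all genes were, and the higher one for 1, where 26.9% were. Spry2, Spry4 and Dusp6 did not pass. The labels do not say what the replicate numbers share.

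**Figure D3:**
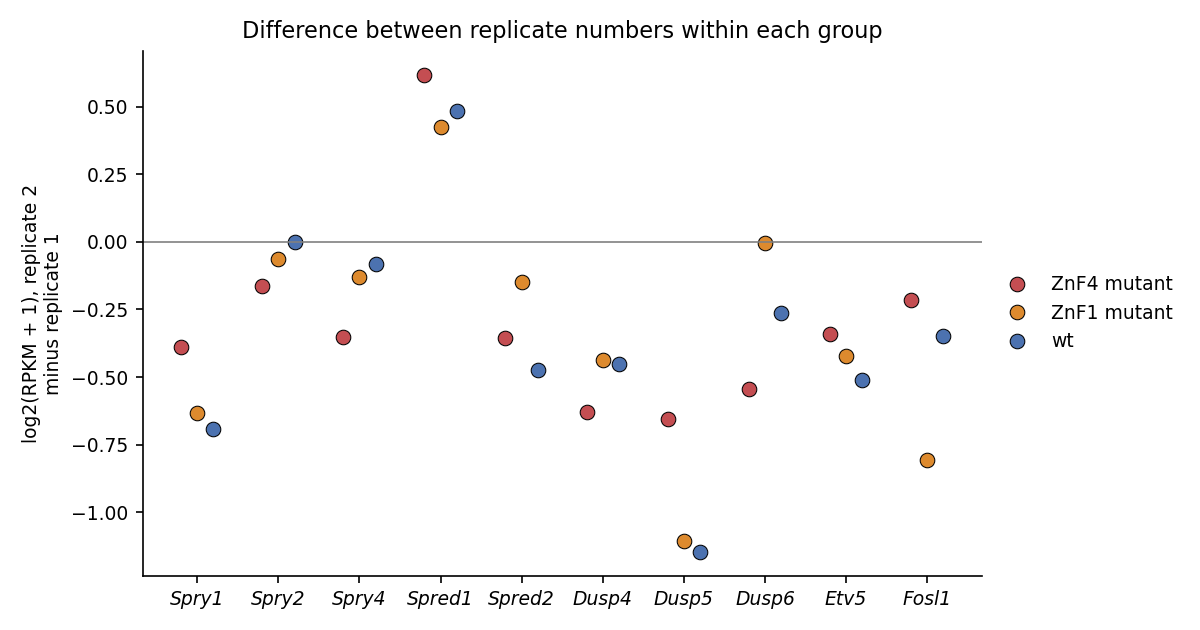
Difference in log2(RPKM + 1) between replicate 2 and replicate 1 (vertical axis) of the 10 genes, within each group. Points below 0 are lower in replicate 2. Dusp5 lies lowest, at −1.15 in wt, and Spred1 lies above 0 in each of the 3 groups.

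The paralogues of these genes were followed as a second list, of which 10 of 14 were tested. By limma without the block 0 passed in each comparison. Unadjusted p was under 0.05 for 2 in ZnF4 mutants against wt, 3 in ZnF1 mutants against wt and 2 between the mutants. Of all 11344 genes tested, 1327, 1281 and 2195 had an unadjusted p under 0.05 in these comparisons, in the same order. The shares of all genes that passed by limma were 2.72%, 0% and 5.37%, again in that order. With the block 3 paralogues were higher in ZnF4 mutants than in wt, beside 8% of all genes. Etv4, an ETS factor of the same subfamily as Etv5, was at 3.8 and 1.6 RPKM in ZnF4 mutants, 1.7 and 0.7 in ZnF1-mutant cultures, and 0.8 and 0.6 in wt (log2 1.06 for ZnF4 mutants against wt, adjusted p = 0.33, or 0.025 with the block). Dusp9 and Dusp7, both ERK phosphatases, differed from wt by 0.81 and 0.42 (adjusted p with the block 0.024 and 0.044). Dusp9 was at 1.5 and 1.4 RPKM in ZnF4 mutants and 0.5 and 0.3 in wt. Etv4 and Dusp9 were under 1 RPKM in both wt libraries, so they entered the test through the mutant libraries, where they were higher.

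In ZnF1 mutants against wt, 3 other paralogues passed with the block, all higher, beside 10.4% of all genes tested. Fos, the immediate early AP-1 subunit, was at 30.2 and 15.3 RPKM in ZnF1-mutant cultures, and 9.6 and 9.5 in wt (log2 1.10, adjusted p = 0.34, or 0.038 with the block). Fosl2, which encodes FRA2, was at 5.6 and 2.8 RPKM in ZnF1-mutant cultures, and 1.6 and 1.4 in wt (adjusted p = 0.24, or 0.033 with the block). Dusp1, a phosphatase that prefers stress kinases, was at 24.6 and 12.2 RPKM in ZnF1-mutant cultures, and 11.3 and 7.9 in wt (adjusted p = 0.64, or 0.022 with the block). Macrophage and stromal marker sums were highest in the same cultures, and their part in these values, and in those of ZnF1 mutants in the lists that follow, was not tested. Between the mutants, Fos, Fosl2 and Dusp1 differed by −1.48, −1.29 and −0.87 (adjusted p = 0.10, 0.072 and 0.35, and 0.0085 to 0.0089 with the block), and Etv4 and Dusp7 by 0.72 and 0.54 (0.041 and 0.014 with the block). With the block 2 of 10 tested paralogues were thus higher and 3 lower there, beside 15.9% and 19.2% of all genes.

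Of 22 other genes that ERK induces, 17 were tested. In ZnF4 mutants against wt, 1 was higher and 0 lower by limma (4 and 2 with the block), with a median of 0.22. Of all genes tested, 1.43% were higher and 1.3% lower there by limma (8% and 7.92% with the block). The membrane protein gene Emp1 was at 31.1 and 37.1 RPKM in ZnF4 mutants, 27.7 and 20.2 in ZnF1-mutant cultures, and 9.6 and 8.9 in wt. It rose in ZnF4 mutants against wt by 1.77 (log2, SE 0.21, adjusted p = 0.0223), and in ZnF1 mutants the value was 1.27 (adjusted p = 0.10, or 0.015 with the block). Ccnd1, which encodes the G1 cyclin D1, was at 38.7 and 29.1 RPKM in ZnF4 mutants, 31.5 and 17.6 in ZnF1-mutant cultures, and 9.5 and 8.9 in wt. Its difference from wt was 1.76 in ZnF4 mutants (adjusted p = 0.061, or 0.0044 with the block) and 1.27 in ZnF1 mutants (adjusted p = 0.17, or 0.016 with the block). The cytokine gene Lif was at 2.3 and 2 RPKM in ZnF4 mutants, 6.3 and 4.1 in ZnF1-mutant cultures, and 9.5 and 5.5 in wt (ZnF4 mutants against wt −1.39, adjusted p = 0.11, or 0.0055 with the block). Nr4a1, an immediate early nuclear receptor gene, differed by 0.94 (adjusted p = 0.25, or 0.0099 with the block).

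In ZnF1 mutants against wt, 0 of these 17 genes passed by limma, beside 0% of all genes tested, and the median was 0.61. Unadjusted p was under 0.05 for 6 of the 17, beside 1281 of all 11344 genes. With the block 9 of the 17 were higher, beside 10.4% of all genes tested. Errfi1, a feedback inhibitor of the EGF receptor family, was at 14.3 and 12.1 RPKM in ZnF1-mutant cultures, and 4.3 and 4.5 in wt (log2 1.39, adjusted p = 0.092, or 0.0052 with the block). Jun, an AP-1 subunit, was at 79.7 and 45.6 RPKM in ZnF1-mutant cultures, and 48.9 and 27 in wt (0.71, adjusted p = 0.80, or 0.0081 with the block). Plaur, the urokinase receptor gene, which macrophages also express, was at 11 and 9.3 RPKM in ZnF1-mutant cultures, and 5 and 2 in wt (adjusted p with the block 0.033). In ZnF4 mutants against ZnF1 mutants, Errfi1 and the zinc finger gene Klf6 fell by 1.20 and 1.05 (log2, adjusted p = 0.0247 and 0.0288), and the AP-1 subunit gene Junb and Lif differed by −0.79 and −0.96 (adjusted p with the block 0.0038 and 0.010, without it 0.44 and 0.16). Myc, the growth regulator, differed by 0.64 (adjusted p = 0.21, or 0.044 with the block). Between the mutants 0 of these 17 genes were higher and 2 lower by limma, beside 1.61% and 3.76% of all genes tested. With the block 2 were higher and 8 lower, beside 15.9% and 19.2%. Egr1, the immediate early zinc finger gene, was at 23.4 and 21.3 RPKM in ZnF4 mutants, 13.4 and 48.8 in ZnF1-mutant cultures, and 9.3 and 10.9 in wt, and was outside the calls of both fits.

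Of 20 tested genes of the pathway core, from receptor adaptors to ERK, 0 passed by limma in each comparison. Of all genes tested, 2.72% passed in ZnF4 mutants against wt, 0% in ZnF1 mutants against wt and 5.37% between the mutants. Unadjusted p was under 0.05 for 2 of the 20 each time, beside 1327, 1281 and 2195 of all 11344 genes, in that order. The medians of the core were 0.03 in ZnF4 mutants against wt and 0.01 in ZnF1 mutants against wt. Mapk3, a kinase gene of this core, passed in no comparison of either fit and was at 30.9 and 22.4 RPKM in ZnF4 mutants, 35.2 and 24.4 in ZnF1-mutant cultures, and 33 and 20.1 in wt. With the block, the docking adaptor gene Gab1 was higher in ZnF4 mutants at 4.2 and 2.6 RPKM (adjusted p = 0.043) and in ZnF1 mutants at 3.2 and 3.9 (adjusted p = 0.040), against 1.2 and 1.4 in wt. Its relative Gab2 was higher in ZnF1 mutants (12.9 and 13.5 RPKM against 8.8 and 9 in wt, adjusted p with the block 0.016), and the scaffold gene Ksr1 was lower in ZnF4 mutants (1.3 and 1 RPKM against 3.1 and 1.9 in wt, 0.040 with the block). Between the mutants, Gab2 and Ksr1 differed by −0.63 and −0.75, and the MEK gene Map2k1 by 0.28 (adjusted p with the block 0.0044, 0.018 and 0.042). With the block, 1 of 20 was thus higher and 2 lower between the mutants, beside 15.9% and 19.2% of all genes tested. In ZnF4 mutants against wt 1 was higher and 1 lower, beside 8% and 7.92%. In ZnF1 mutants against wt 2 were higher and 0 lower, beside 10.4% and 2.88%.

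Among 12 tested RAS regulators, 0 passed by limma against wt in either mutant. Of all genes tested, 2.72% passed in ZnF4 mutants and 0% in ZnF1 mutants. Unadjusted p was under 0.05 for 3 of the 12 in ZnF4 mutants and 2 in ZnF1 mutants. Of all 11344 genes, 1327 and 1281 had such a p, in the same order. With the block 0 of the 12 regulators were higher and 3 lower in ZnF4 mutants, beside 8% and 7.92% of all genes tested. In ZnF1 mutants 5 were higher and 0 lower with the block, beside 10.4% and 2.88%. Dok3, an inhibitory adaptor of B cells and macrophages, was at 11.4 and 4.1 RPKM in ZnF4 mutants, 37.3 and 21.5 in ZnF1-mutant cultures, and 40.2 and 19.9 in wt (ZnF4 mutants against wt −1.88, adjusted p = 0.24, or 0.0018 with the block). The other 2 that were lower were Rasgrp3 and Rasal3, and the 5 that were higher were Dok2, Dab2ip, Rasa3, Dok1 and Rasgrp1. Rasgrp1, a RAS activator, was at 3.5 and 1.7 RPKM in ZnF4 mutants, 12.5 and 16.1 in ZnF1-mutant cultures, and 5.1 and 6 in wt. It fell by 2.12 in ZnF4 mutants against ZnF1 mutants (log2, adjusted p = 0.0265), as did its relative Rasgrp3 by 0.95 (adjusted p = 0.039) and the adaptor gene Dok2 by 1.90 (adjusted p = 0.0338). In that comparison 0 of 12 regulators were higher and 3 lower by limma, beside 1.61% and 3.76% of all genes tested. With the block 0 were higher and 7 lower, beside 15.9% and 19.2%.

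Of 11 tested receptors that feed RAS, 1 was higher in ZnF4 mutants against wt by limma, beside 1.43% of all genes tested. It was the stem cell factor receptor Kit, at 16.2 and 15.4 RPKM in ZnF4 mutants, 1 and 1.6 in ZnF1-mutant cultures, and 0.4 and 0.3 in wt (log2 3.64, adjusted p = 0.0048). Both wt libraries of Kit were under 1 RPKM, so it entered the test through the mutant libraries, where it was higher. Igf1r, the receptor of insulin-like growth factors, was at 11.3 and 9.4 RPKM in ZnF4 mutants, 4.7 and 4.1 in ZnF1-mutant cultures, and 4.1 and 5 in wt. It rose in ZnF4 mutants against ZnF1 mutants by 1.07 (adjusted p = 0.0365), as did Kit by 2.88 (adjusted p = 0.0082). The difference of Igf1r from wt was 1.03 (adjusted p = 0.061, or 0.0097 with the block). With the block Kdr was also higher and Csf2rb, the shared chain of cytokine receptors, lower in ZnF4 mutants against wt (0.71 and −1.08). Kdr was under 1 RPKM in all libraries of that comparison, at 0.7 and 0.9 in ZnF4 mutants and 0.1 in both wt libraries. With the block 3 of 11 receptors were higher there and 1 lower, beside 8% and 7.92% of all genes. Csf1r fell in ZnF4 mutants against ZnF1 mutants by 1.10 (adjusted p = 0.0318), and Csf2rb differed by −1.59 (adjusted p = 0.073, or 0.0028 with the block). In that comparison 2 receptors were higher and 1 lower by limma, beside 1.61% and 3.76% of all genes tested. With the block 2 were higher and 6 lower, beside 15.9% and 19.2%. In ZnF1 mutants against wt, 0 receptors passed by limma, beside 0% of all genes tested. Unadjusted p was under 0.05 for 5 of the 11 receptors, beside 1281 of all 11344 genes. With the block 5 receptors were higher, beside 10.4% of all genes. Il7r, the interleukin 7 receptor of early B cells, was at 43.5 and 70.5 RPKM in ZnF1-mutant cultures, and 15.3 and 21.3 in wt (log2 1.56, adjusted p = 0.10, or 0.011 with the block). The other 4 were Kit, the macrophage receptor gene Csf1r, and the stromal and endothelial receptor genes Pdgfrb and Kdr. The last 3 also stand in the marker lists above, and Pdgfrb and Kdr entered the test through ZnF1 mutant libraries alone.

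**Figure D4:**
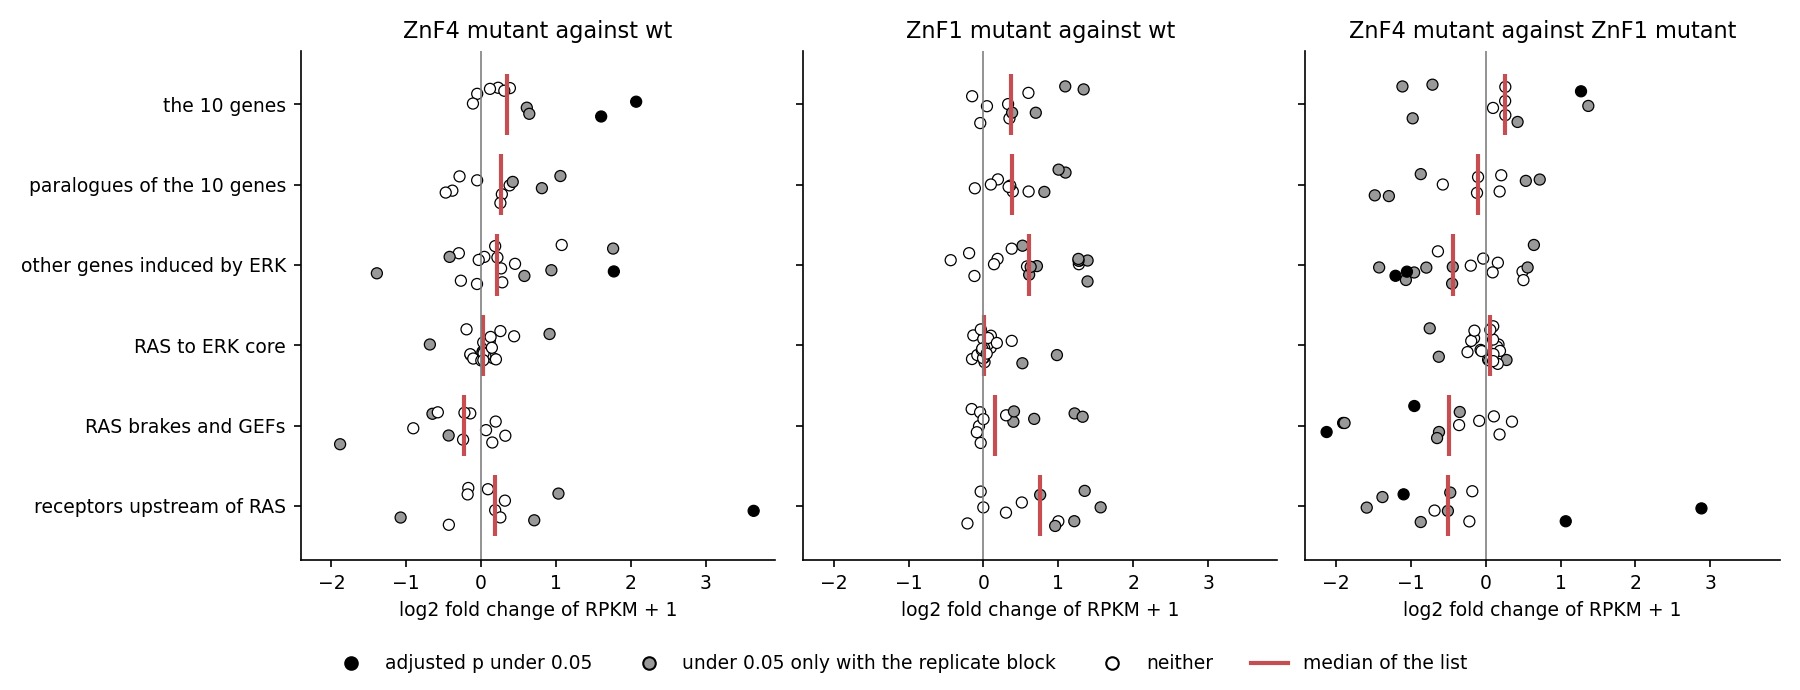
Log2 fold change of RPKM + 1 (horizontal axis) of each tested gene in 6 lists, in 3 comparisons. Each point is a gene, filled where the adjusted p was under 0.05, grey where it was so with the replicate block alone, and open otherwise, and red lines are list medians. Kit is the point furthest to the right in ZnF4 mutants against wt, at 3.64.

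The 10 genes averaged, as centred log2(RPKM + 1), 0.38 and 0.08 in ZnF4 mutants, 0.28 and −0.05 in ZnF1-mutant cultures, and −0.17 and −0.52 in wt. The gene outside the set whose profile over the 6 libraries was most like this mean was Cd248, which encodes endosialin, a stromal surface protein, at 16.1 and 9.8 RPKM in ZnF4 mutants, 14.1 and 8.2 in ZnF1-mutant cultures, and 6 and 3 in wt. Likeness was measured as Pearson's r between profiles over the 6 libraries, which was 0.998 for Cd248. It was 0.989 to 0.997 for the next 4 genes, 1810055G02Rik, Dpp7, Klhdc10 and Habp4. The ranking is a description over 6 libraries that share the replicate difference given above. The mean joins genes highest in different groups, such as Dusp4 in ZnF4 mutants and Spry1 in ZnF1 mutants. Stromal and endothelial marker sums were highest in ZnF1 mutants, and their part in the mean was not tested.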

How the data were processed

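Polyadenylated RNA of 6 cultures was sequenced. The authors deposited RPKM values per RefSeq transcript, per the file headers, made with TopHat, bedtools and build mm9, per the submitters' processing notes. Versions, strand use and treatment of shared reads are not given in the sources used here. Rows (26531) were summed by symbol, after 39 of 40 symbols altered by a spreadsheet had been restored by accession. Summed RPKM per library ranged from 286964 to 345728.

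Limma 3.58.1 (R 4.3.3, intensity trend, two-sided) was fitted to 3 group means of log2(RPKM + 1). Fold changes on this scale understate those of low genes. The fit was tested on simulated data with independent libraries and with changes set in genes of higher level alone. That simulation held no replicate difference, so it could not check the fit for libraries that deviate together or for low genes. Across genes, same-numbered libraries deviated from their group means with correlations of 0.754 (ZnF4 mutants and wt), 0.5 (ZnF1 mutants and wt) and 0.715 (both mutants), so the numbers were taken to pair them, although the labels name no shared source. The members, lists and tests were chosen with earlier results of these data known. All 10 members are named, and of other lists up to 4 genes per comparison with the lowest p among those past 0.05 in either fit. Nf1, Mapk3, Myc, Egr1, Plaur and genes that complete a count were named after their values were seen. Alternatives covered pseudocounts, filters, scalings, row choice, the libraries in the fit and the block.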

Additional observations from a re-analysis of the deposited data

How the results depend on the processing

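In the 30 member values under 504 recalculations, 453 kept their side of the threshold, 25 passed and 26 no longer passed, and none that passed in either fit changed sign. The replicate block gave 1805 genes and 4 members in the ZnF4 mutant against wt (309 and 2 without it), 1502 genes and 4 members in the ZnF1 mutant against wt (0 and 0), and 3979 genes and 6 members between the mutants (609 and 1). The block with median rescaling, chosen after seeing the data, gave 1895 and 4, 1604 and 5, and 4207 and 7.

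Among genes of at least 5 RPKM, which leaves out Spry4 and Fosl1, the counts were 176 genes and 0 members in the ZnF4 mutant against wt and 323 and 0 between the mutants. In fits of the 4 libraries of a comparison they were 131 and 0, and 324 and 0. Without a filter 1 member passed in the ZnF4 mutant against wt, Spry4, and with quantile normalization 2 passed between the mutants. Leaving out single libraries gave 0 to 119 genes in the ZnF4 mutant against wt, 0 in the ZnF1 mutant against wt and 0 to 306 between the mutants, and 0 members each time. An alternative chosen after seeing the data left out wt replicate 1 and ZnF1 mutant replicate 2, the libraries highest in granulocyte markers. Dusp4 and Spry4 then stood at 2.30 and 1.64 in the ZnF4 mutant against wt. Spry1 and Fosl1 stood at 2.00 and 1.67 in the ZnF1 mutant against wt. The latter comparison sets replicate 1 against replicate 2, so genotype and replicate number cannot be told apart in it. In the former, wt is replicate 2 alone. With all libraries and the block, replicate 2 differed from replicate 1 by −0.57 for Spry1, −0.46 for Fosl1, −0.51 for Dusp4 and −0.19 for Spry4. Fits with libraries left out have fewer libraries and degrees of freedom, and replicate numbers that are not balanced between groups. Whether the calls of single genes of the other lists hold without a library was not computed. Rounding to 0.1 RPKM limits the precision of Spry4, Fosl1 and Dusp4 in wt.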
